A study of Mus musculus with 14 samples.

Results

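The 10 genes described here are an antioxidant and glutathione set: Gclc and Gclm, which make glutathione, Srxn1 and Txnrd1, which keep the thioredoxin and peroxiredoxin system reduced, the quinone reductase Nqo1, the glutathione transferases Gsta4 and Gstm1, the superoxide dismutases Sod2 and Sod3, and the glutathione peroxidase Gpx3. They were chosen by name, with earlier results of these data known. A probe set was used where the platform annotation gave it exactly 1 symbol that was one of these genes. The 10 genes had 24 probe sets. The probe set with the highest mean over all 14 arrays stood for its gene and the others served as a check. The array covered 18193 genes in this way. Of these, 8682 reached an intensity of 50 on at least 3 arrays and were tested, among them 8 of the 10. Sod3 and Gpx3 did not reach 50 on any array and were not tested.

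Messenger RNA was measured on Affymetrix mouse arrays in 3T3-L1 cells, a mouse embryonic fibroblast line committed to become fat cells. SETD5 cells were transduced with a retrovirus that expresses V5-tagged mouse SETD5, a SET domain protein that associates with corepressors, from a weak LTR promoter, and Empty cells carried the vector alone. Both were stable lines, grown past confluence and given insulin, dexamethasone and isobutylmethylxanthine, followed by insulin alone. RNA was taken at 0, 12, 24, 36, 48, 96 and 192 h, and each line gave 1 array at each of them. No hour had a replicate, so hours stood in for replicates in the virus comparisons, and SETD5 cannot be told apart from any other difference between the lines.

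Glutathione is a small thiol that cells use to reduce peroxides and to tag reactive compounds for export, and its synthesis is limited by glutamate-cysteine ligase. Many genes of this system carry antioxidant response elements, DNA sequences bound by the transcription factor NRF2 with a small MAF partner when the inhibitor KEAP1 releases NRF2. Fat cells use NADPH both for this reducing system and for fatty acid synthesis.

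The cells matched their label. All 9 fibroblast and preadipocyte markers (such as Col1a1, Vim and Pdgfra) reached 50 on every array. Of the macrophage, endothelial and epithelial markers, 0 reached 50 on any array, with highest intensities of 46.1, 11.3 and 49.2. Of 9 fat cell markers, 8 had a probe set (Pparg, Cebpa, Fabp4, Adipoq, Cd36, Lpl, Cidec and Retn), and their summed intensity ran from 1519.1 to 20508.4 in SETD5 cells and from 1489.3 to 38221.4 in Empty cells. At 36, 48, 96 and 192 h the sum was 4171.4, 5818.1, 10141.6 and 20508.4 in SETD5 cells, against 5299.7, 11494.8, 24490.6 and 38221.4 in Empty cells, so it was lower in SETD5 cells at all 4 hours. The part of this gap in any late difference below was not tested, and in bulk RNA fewer fat cells and less RNA per fat cell cannot be told apart. The Setd5 probe set, whose position relative to the viral transcript was not analysed here, gave 339.8 in SETD5 cells and 377.5 in Empty cells at 0 h and so did not check the labels. Median intensities over tested genes lay between 188 and 208 on the 14 arrays, and the number of arrays limits the precision.

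The first question was how the genes moved as the cells differentiated. Each later hour was compared with 0 h over both viruses by limma, with virus as a block, and values are log2 changes of intensity with an offset of 16, ± SE. The SETD5 and Empty lines stood in for replicates here. The SE therefore measures how the courses of the lines differed, including any SETD5 effect, and not the spread between replicate cultures. These 6 comparisons share the 0 h arrays. At a Benjamini-Hochberg adjusted p under 0.05, 6, 6, 5, 5, 1 and 2 of the 8 genes passed at 12, 24, 36, 48, 96 and 192 h, where 47.8%, 38.4%, 29.4%, 34.2%, 15.6% and 19.6% of all genes tested passed. The genes did not move as a block: 4 were higher and 2 lower at 12 h, while 19.9% and 27.9% of all genes tested were called higher and lower. Gclc, Srxn1 and Sod2 rose during the first 48 h and Gsta4 and Gstm1 fell, each at 12, 24, 36 and 48 h. Of the 25 calls over the 6 hours, 14 held under every alternative tried.

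**Figure D1:**
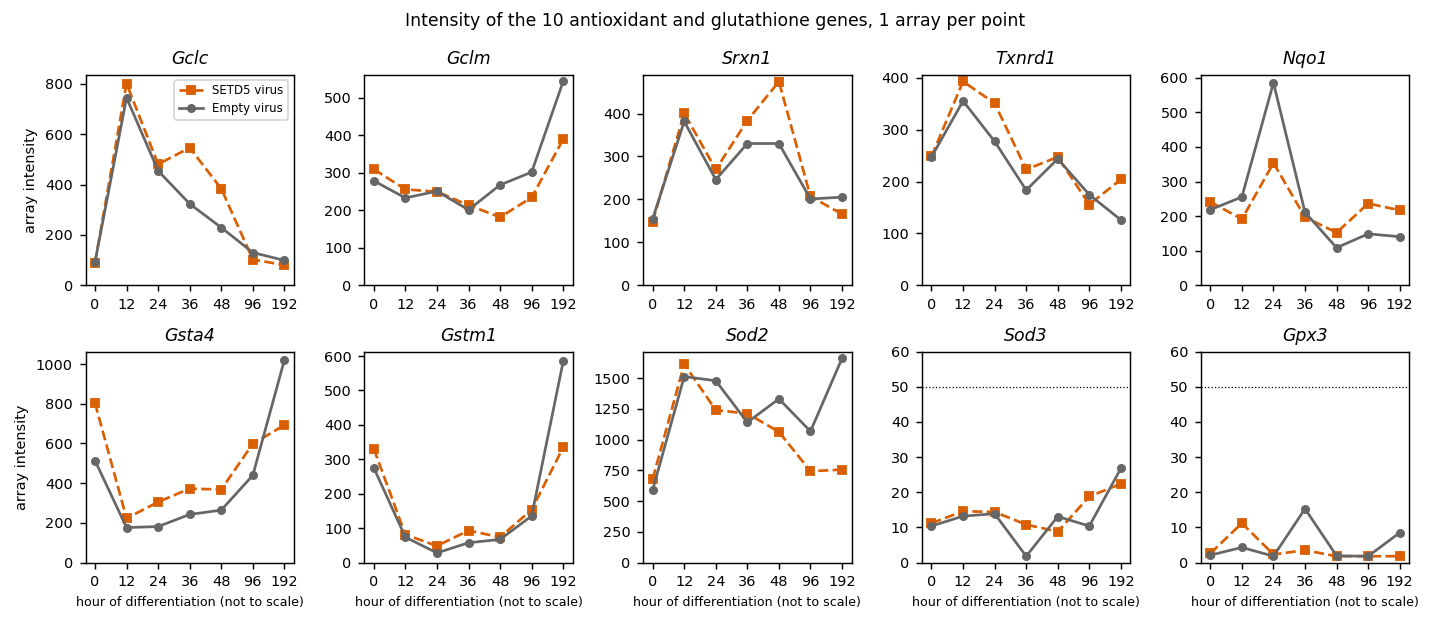
Array intensity (linear, y axis from 0) of each of the 10 genes at each hour (x axis, hours evenly spaced and not to scale), with 1 array per point: SETD5 virus as orange squares with dashed lines and Empty virus as grey circles. Gclc reached 800.2 and 744.3 at 12 h, Gstm1 dipped to 48.2 and 28 at 24 h, and the dotted line at 50 stays above every value of Sod3 and Gpx3.

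Gclc, the catalytic subunit of glutamate-cysteine ligase, showed the largest change of the set at any hour. Its intensities at 0, 12, 24, 36, 48, 96 and 192 h were 89.7, 800.2, 480.4, 545.6, 383.8, 102.3 and 80.8 in SETD5 cells (probe set 1424296_at). Empty cells gave 91.5, 744.3, 454.5, 323.3, 229.2, 130.1 and 98.9. In both lines the 12 h array was the highest and the 4 arrays from 12 to 48 h were all above the other 3. Over both lines Gclc rose by 2.89, 2.18, 2.03 and 1.55 (each ± 0.25) at the hours from 12 to 48 h, with limma's adjusted p from 2.1e-05 at 12 h up to 0.00125 at 48 h. The change was 0.30 by 96 h (adjusted p = 0.440) and -0.015 by 192 h (adjusted p = 0.971). Its other probe set, 1455959_s_at, gave 2.33 at 12 h and passed at the same 4 hours.

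Gclm, the modifier subunit that lets the ligase work at cellular glutathione levels, kept a different course from its partner. Its intensities over the 7 hours were 309, 255.4, 249.4, 213.4, 181.5, 233.9 and 389 in SETD5 cells (1418627_at). The Empty arrays read 278.3, 232.6, 250.7, 201, 267.3, 301.4 and 543.1. The 192 h array was the highest in both lines, and the lowest was at 48 h in SETD5 cells and at 36 h in Empty cells. Gclm did not pass at 12 h, where the change was -0.25 ± 0.18 (adjusted p = 0.287). It rose by 0.62 ± 0.18 at 192 h (adjusted p = 0.0406), a call lost under 12 of the alternatives. Those included leaving out the 0, 24, 36 or 96 h array of either line or the 192 h array of Empty cells, with adjusted p up to 0.292. Its second probe set (1439050_at) lay between 32.2 and 81.5 on all arrays and changed in the same direction at 192 h without passing. Across the 14 arrays Gclc and Gclm had a Pearson r of -0.61 on log2 intensity, which is a description over arrays that share a time course.

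Promoter sequence was set beside these courses because 3 of the genes, all of the glutathione or thioredoxin systems, hold an antioxidant response element core near a start site. Windows of 250 bases before to 50 after the start were taken from RefSeq (GRCm38.p6). Of the 10 genes 7 had at least 1 window, 10 windows in all. Gclc, Gsta4 and Sod3 had no entry. The core TGACNNNGC was found on either strand in 3 of the 10 windows (Gclm, Srxn1 and the second of 3 Txnrd1 starts), against 12.4% of 32851 windows of all genes. The longer NRF2 and small MAF element, TGACTCAGC or TGAGTCAGC, was found in 1 of the 10, that of Srxn1, against 0.822% of all windows. The form TGACTCAGC also matches the shorter core. The 250 bases before the starts of Gclm (chr3:122245307-122245556, plus strand) and Txnrd1 (chr10:82858956-82859205, plus strand) follow, printed as the plus strand. The core lies on the minus strand, so the capitals show its reverse complement. It lies 134 to 126 bases before the start of Gclm and 92 to 84 bases before that start of Txnrd1.
Gclm promoter: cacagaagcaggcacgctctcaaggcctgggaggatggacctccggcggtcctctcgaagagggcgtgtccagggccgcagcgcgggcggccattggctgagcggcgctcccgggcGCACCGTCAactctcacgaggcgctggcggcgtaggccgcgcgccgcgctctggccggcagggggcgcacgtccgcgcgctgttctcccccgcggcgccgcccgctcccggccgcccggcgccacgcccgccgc
Txnrd1 promoter: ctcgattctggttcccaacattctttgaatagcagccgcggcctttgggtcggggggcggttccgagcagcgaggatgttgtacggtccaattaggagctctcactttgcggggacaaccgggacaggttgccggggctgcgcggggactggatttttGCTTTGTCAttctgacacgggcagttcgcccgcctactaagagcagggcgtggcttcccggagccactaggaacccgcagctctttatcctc
These matches are a description of the letters and were not tested for binding.

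Srxn1 encodes sulfiredoxin, which repairs peroxiredoxins whose active cysteine has been over-oxidised. Its window (chr2:152105274-152105523, plus strand) is shown because it alone held the longer element, in capitals, 45 to 37 bases before the start.
Srxn1 promoter: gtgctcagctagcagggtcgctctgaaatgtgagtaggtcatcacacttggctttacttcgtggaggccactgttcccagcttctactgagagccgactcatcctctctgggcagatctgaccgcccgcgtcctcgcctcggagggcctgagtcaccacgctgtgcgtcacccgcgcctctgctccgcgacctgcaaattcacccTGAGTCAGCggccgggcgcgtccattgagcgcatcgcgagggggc
The intensities of Srxn1 at 0, 12, 24, 36, 48, 96 and 192 h were 148.4, 400.6, 269.7, 383.6, 474.4, 206.9 and 165.9 in SETD5 cells (1426875_s_at). Those of Empty cells were 154.9, 381.5, 246.2, 330.1, 330.1, 201.1 and 205.3. All 8 arrays from 12 to 48 h were above all 6 others, with a dip at 24 h in both lines. Over both lines Srxn1 rose by 1.28, 0.71, 1.15 and 1.30 (each ± 0.16) at the hours from 12 to 48 h, with limma's adjusted p from 0.000181 at 12 h up to 0.00655 at 24 h. The 24 h call was lost without the 0 h array of SETD5 cells (adjusted p = 0.0549) and the other 3 held under every alternative. At 96 h the change was 0.39 (adjusted p = 0.129). A second tested probe set (1451680_at) changed in the same direction at all 4 hours and passed at 3 of them.

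Txnrd1, the cytosolic thioredoxin reductase and a selenoprotein, was highest at 12 h. Its intensities over the 7 hours were 248.2, 392.7, 350.8, 223.2, 247.2, 155.7 and 204 in SETD5 cells (1421529_a_at). With the Empty virus they were 247.3, 355.1, 277.3, 183.4, 243.6, 174.6 and 125.9. In both lines the 12 h array came first and the 24 h array second. Txnrd1 rose by 0.56 ± 0.17 at 12 h (adjusted p = 0.0199), a call lost on leaving out the 12 h array of either line or the 0 h array of SETD5 cells (adjusted p up to 0.128). It fell by 0.58 ± 0.17 at 192 h (adjusted p = 0.0385), which was lost under 13 alternatives, among them leaving out any array of 12, 24, 36, 48 or 0 h or the 192 h array of Empty cells, with adjusted p up to 0.284.

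Nqo1, which reduces quinones by a transfer of a pair of electrons and is widely used as a readout of NRF2, was highest at 24 h. Its intensities were 241.3, 191.3, 353.6, 196.7, 152.4, 236.4 and 217.1 in SETD5 cells (1423627_at). Empty cells gave 218.3, 255.4, 585.2, 210.9, 108.7, 148.8 and 140.6. The 24 h array was the highest and the 48 h array the lowest in both lines. Nqo1 rose by 0.94 ± 0.29 at 24 h (adjusted p = 0.0272), while at 12 h the change was -0.05 (adjusted p = 0.905). The 24 h call was lost without either 0 h array or without the 24 h array of Empty cells (adjusted p up to 0.258).

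The glutathione transferases ran the other way. Gsta4, which conjugates glutathione to the reactive aldehydes that lipid peroxidation gives, had intensities of 804.1, 222.7, 305, 372.4, 367.8, 598.4 and 692.4 in SETD5 cells (1416368_at). The Empty arrays read 513.9, 176.2, 181.2, 242.3, 264.1, 439.4 and 1019.9. The 12 h array was the lowest in both lines and each later array except the 48 h array of SETD5 cells was above the array before it. The changes of Gsta4 were -1.62, -1.39, -1.06 and -1.01 (each ± 0.25) at 12, 24, 36 and 48 h, and all 4 passed. The 36 and 48 h calls were lost without the 0 h array of SETD5 cells, without the Empty array of the same hour and, at 48 h, without the SETD5 array of that hour (adjusted p up to 0.0840). At 192 h the change was 0.38 (adjusted p = 0.312).

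Gstm1, a mu class transferase, fell furthest. Its intensities were 330.3, 81.3, 48.2, 93, 73.7, 153.3 and 334.9 in SETD5 cells (1416416_x_at). Those of Empty cells were 275.2, 73.6, 28, 57.5, 67.2, 135.3 and 584.6. The 24 h array was the lowest in both lines, and the 0 and 192 h arrays were the highest. The changes of Gstm1 were -1.77, -2.58, -1.83 and -1.88 (each ± 0.26) at 12, 24, 36 and 48 h, with the lowest adjusted p, 6.14e-05, at 24 h, and these 4 calls held under every alternative. It also fell by 0.99 ± 0.26 at 96 h (adjusted p = 0.0301), which was lost without filter and without any 0 or 96 h array (adjusted p up to 0.152). The name of this probe set marks it as open to cross-hybridisation, and mu class genes are close copies, so its level may include relatives. The other tested Gstm1 probe sets changed in the same direction in all 10 comparisons of a probe set and an hour, and passed in 8. Gsta4 and Gstm1 had a Pearson r of 0.92 over the 14 arrays and Gclc and Gsta4 one of -0.85, both as descriptions of arrays that share hours.

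**Figure D2:**
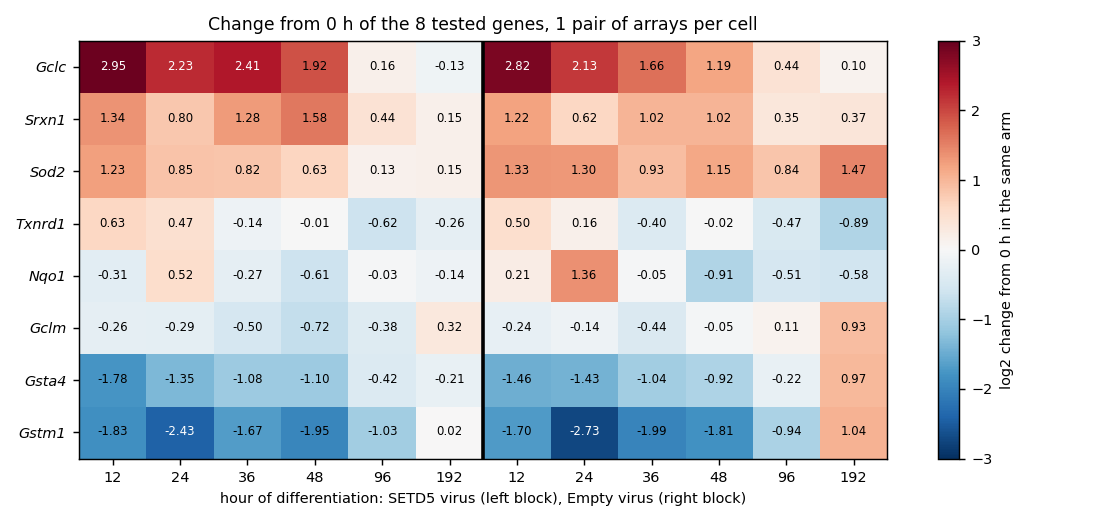
Log2 change of intensity (offset 16) from the 0 h array of the same line for the 8 tested genes (rows) at each later hour (columns), SETD5 virus in the left block and Empty virus in the right, with the value printed in each cell and red for higher, blue for lower. Gclc is the reddest row at 12 h (2.95 with SETD5 and 2.82 with Empty) and Gstm1 the bluest at 24 h (-2.43 with SETD5 and -2.73 with Empty).

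Sod2, the manganese superoxide dismutase of the mitochondrial matrix, rose early in both lines. Its intensities were 679.1, 1613.6, 1239.7, 1212, 1062.6, 742.7 and 755.4 in SETD5 cells (1448610_a_at). With the Empty virus they were 589.9, 1512.3, 1478.5, 1140, 1331, 1067.4 and 1660.9. In SETD5 cells the 12 h array was the highest, and in Empty cells the 192 h array was. Over both lines Sod2 rose by 1.28, 1.08, 0.88 and 0.89 (each ± 0.27) at the hours from 12 to 48 h, with limma's adjusted p from 0.00319 at 12 h up to 0.0331 at 36 h. The 12 h call held under every alternative. The 24 h call was lost without either 24 h array or the 0 h array of Empty cells, the 48 h call without either 48 h array or that 0 h array, and the 36 h call without these 36 and 48 h arrays or that 0 h array (adjusted p up to 0.261). The 36 and 48 h calls were also lost with no virus block, and the 36 h call with no filter. At 192 h the change was 0.81 (adjusted p = 0.0587). At the hours from 12 to 48 h the tested other probe sets of Sod2 changed in the same direction in all 8 comparisons of a probe set and an hour and passed in 7. The Sod2 window (chr17:13007589-13007838, plus strand) held 4 copies of the GC box GGGCGG, a binding letter string of SP1 family factors, all on the plus strand and in capitals here. At least 1 GC box on either strand was in 6 of the 10 windows of these genes and in 35.7% of all windows.
Sod2 promoter: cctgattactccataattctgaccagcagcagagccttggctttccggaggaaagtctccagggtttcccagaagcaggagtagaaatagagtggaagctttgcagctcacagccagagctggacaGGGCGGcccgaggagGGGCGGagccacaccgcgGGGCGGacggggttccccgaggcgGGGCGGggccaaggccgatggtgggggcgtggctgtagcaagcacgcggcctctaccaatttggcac
No match to the antioxidant response element core was found in that window.

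The extracellular enzymes were at the floor of the array. Sod3, the secreted copper-zinc dismutase, ran from 8.8 to 22.4 in SETD5 cells and from 1.8 to 26.8 in Empty cells (1417633_at), with its highest value at 192 h in both lines. Gpx3, the secreted selenium peroxidase of plasma, which fat tissue also makes, ran from 1.8 to 11.2 in SETD5 cells and from 1.8 to 15.3 in Empty cells (1449106_at). At these intensities neither a course over hours nor a virus difference could be read.

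The second question was whether SETD5 cells differed from Empty cells. The difference is SETD5 minus Empty at the same hour, tested by limma with hour as a block. It was taken over all 7 hours, over an early window (0, 12 and 24 h) and over a late window (36, 48, 96 and 192 h), and the late effect was set against the early one as late minus early. Of the 8 genes, 0 passed over all hours (3.62% of genes tested passed), 0 over the early hours (0.023%), 0 over the late hours (12%, with 7.43% higher and 4.56% lower) and 0 for late minus early (0.023%). At an unadjusted p under 0.05 by limma there were 1 over all hours (Gsta4), where 23.6% of all genes tested had such a p, and 1 over the early hours (Gsta4), where 6.22% had. There were 3 over the late hours (Nqo1, Gclm and Sod2), where 31.2% had, and 2 for late minus early (Nqo1 and Gclm), where 12.6% had. With 8 genes these counts lie near those shares. The late effects of the 8 genes ran from -0.47 to 0.38, with 6 above 0 and 2 below. Intervals below are 95% intervals of the difference from the same fit.

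**Figure D3:**
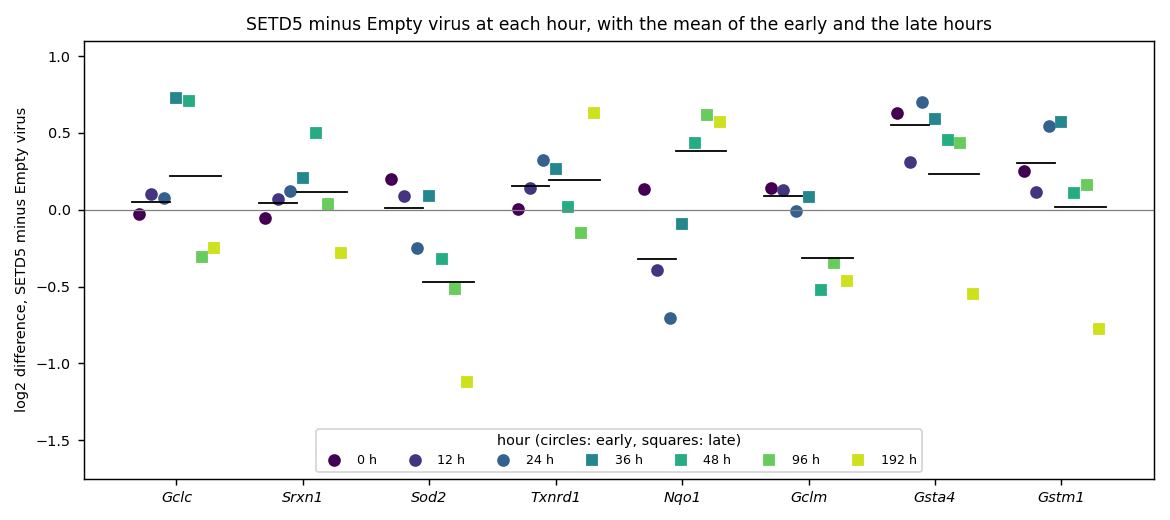
Log2 difference of intensity, SETD5 minus Empty virus, at each hour (colour) for the 8 tested genes, with circles for early and squares for late hours and a black line at the mean of the early (left) and late (right) hours. Above 0 the SETD5 array is higher: Gsta4 lies above 0 at 6 of 7 hours, Sod2 lies at -1.12 at 192 h, and Nqo1 lies below 0 at 12, 24 and 36 h and above it from 48 h.

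By the probe sets that stood for them, Sod2 and Gclm were lower in SETD5 cells late on, without passing. The second Gclm probe set (1439050_at) did not share this. Fitted singly by limma, it gave a late effect of 0.02 ± 0.13 (adjusted p = 0.914). It was higher in SETD5 cells at 2 late hours and lower at 2. The Sod2 probe sets 1417193_at and 1454976_at gave -0.55 and -0.28, also without passing. The values that follow are those of the probe sets that stood for the genes. Over the late hours Sod2 averaged 943 ± 232 in SETD5 cells and 1299.8 ± 265 in Empty cells (SD, n = 4 hours), and the difference was -0.47 ± 0.17 (interval -0.84 to -0.10, adjusted p = 0.0916). The gap was 0.09, -0.32, -0.51 and -1.12 at 36, 48, 96 and 192 h, so the SETD5 array was lower at 3 of 4 late hours. Gclm averaged 254 ± 92.3 in SETD5 cells and 328 ± 149 in Empty cells, with a difference of -0.31 ± 0.10 (interval -0.55 to -0.08, adjusted p = 0.0780), lower at the same 3 hours. Leaving out arrays moved these values both ways. Without either array of 192 h Sod2 differed by -0.25 (adjusted p = 0.263 or 0.264), and without either array of 48 h Gclm differed by -0.24 (adjusted p = 0.224). Without either array of 36 h, which removes that pair, both passed, at -0.65 for Sod2 (adjusted p = 0.0205 or 0.0206) and -0.44 for Gclm (adjusted p = 0.0113 or 0.0112), where 21.9% of genes tested passed. With 96 and 192 h alone as the late window Sod2 differed by -0.82 (adjusted p = 0.00680), where 27.3% passed, and late minus early was -0.83 (adjusted p = 0.0389), where 10.6% passed. The fat cell marker sum was lower in SETD5 cells at these hours by the values given above, and its part in these differences was not tested.

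Nqo1 lay on both sides of 0 over the course. SETD5 minus Empty was 0.14 at 0 h, below 0 at 12, 24 and 36 h (-0.39, -0.70 and -0.09) and above 0 at 48, 96 and 192 h (0.43, 0.61 and 0.57). Over the late hours Nqo1 averaged 201 ± 36.0 in SETD5 cells and 152 ± 42.8 in Empty cells, with a difference of 0.38 ± 0.15 (interval 0.05 to 0.72, adjusted p = 0.117). Late minus early was 0.70 ± 0.23 (adjusted p = 0.334). The late effect was 0.30 without either array of 96 h (adjusted p = 0.323 or 0.325). Both passed with 96 and 192 h alone as the late window, at 0.59 (adjusted p = 0.0382) and 0.91 (adjusted p = 0.0386, where 10.6% of genes tested passed), and the late effect passed without either 36 h array (0.54, adjusted p = 0.0305).

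Gsta4 was higher in SETD5 cells at every hour but the last. The gaps were 0.63, 0.31, 0.70, 0.59, 0.45, 0.43 and -0.55 at the 7 hours, and the overall difference was 0.37 ± 0.13 (interval 0.07 to 0.66, adjusted p = 0.147). The early effect was 0.55 ± 0.20 (adjusted p = 0.603). Without either array of 192 h, which removes that pair, the difference over all hours was 0.52 (adjusted p = 0.00694 or 0.00698, where 3.62% of genes tested passed) and the late effect was 0.49 (adjusted p = 0.0205 or 0.0204, where 6.8% passed). The part of the fat cell markers, whose sum at 192 h was 20508.4 in SETD5 cells and 38221.4 in Empty cells, in the last gap was not tested. Gstm1 also sat above 0 at 6 of 7 hours and below it at 192 h (-0.78), with an overall difference of 0.14 ± 0.14 (adjusted p = 0.564).

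For the other 3 genes the intervals show what the arrays could bound. Over all hours the difference was 0.15 for Gclc (interval -0.14 to 0.44), 0.18 for Txnrd1 (interval -0.03 to 0.38) and 0.09 for Srxn1 (interval -0.11 to 0.28). For Gclc SETD5 minus Empty was 0.73 and 0.71 at 36 and 48 h and -0.30 and -0.25 at 96 and 192 h. For Srxn1 it was largest at 48 h (0.50), and its second probe set 1451680_at gave 0.35 ± 0.09 over all hours, which passed when every probe set was tested on its own (adjusted p = 0.0416, where 5.7% of 14412 probe sets passed).

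Other genes of the same pathways were counted from 8 lists. Among the regulators of the response (Nfe2l2, Keap1, Bach1, the small Maf genes and others), 7 of 9 were tested and 0 passed in the late effect, with a median of 0.05 against 0.04 for all genes tested. Over all genes tested 7.43% were called higher and 4.56% lower in this effect. Of 18 other NRF2 targets, 14 were tested, 2 were higher and 4 lower in SETD5 cells late on, with a median of -0.10. Of the 15 genes of glutathione synthesis and recycling, 9 were tested, and of 10 other peroxidases, dismutases and catalase, 7 were tested, with 0 called in either list. Of 22 other glutathione transferases, 11 were tested, with 2 higher and 1 lower, and of 14 thioredoxins, peroxiredoxins and sestrins, 10 were tested, with 1 higher and 2 lower. The 2 tested oxidases and the 6 metallothioneins and selenoproteins had 0 called.

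The 6 late calls among the NRF2 targets were Taldo1, Tkt, Me1 and Cbr3, which were lower in SETD5 cells, and Ephx1 and Hmox1, which were higher. Taldo1 and Tkt, enzymes of the pentose phosphate pathway, were lower in SETD5 cells over the late hours by limma: Taldo1 averaged 548 in SETD5 cells and 1334 in Empty cells (-1.18 ± 0.23, adjusted p = 0.0150), and Tkt 2287 and 3429 (-0.60 ± 0.16, adjusted p = 0.0403). Me1, the NADPH-making malic enzyme, averaged 211 in SETD5 cells and 587 in Empty cells (-0.95 ± 0.27, adjusted p = 0.0491). The Taldo1 call was lost without either 96 h array and without hour as a block, and those of Tkt and Me1 without any array but those of 36 h and under some other alternatives (15 and 17 in all). With every alternative counted, adjusted p went up to 0.404 for Taldo1 and Tkt and 0.732 for Me1. Cbr3, a carbonyl reductase (-0.48, adjusted p = 0.0411), and Hmox1, a haem oxygenase (0.38, adjusted p = 0.0360), were named after their values were seen. Whether these calls hold under the alternatives was not examined. Ephx1, the microsomal epoxide hydrolase, was higher in SETD5 cells at all 7 hours, with 0.33 at 0 h already. Its difference was 0.49 ± 0.06 over all hours (adjusted p = 0.00693) and 0.53 ± 0.09 over the late hours (adjusted p = 0.00845).

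Ephx1 was at 219, 238.4, 473.2 and 476.1 in SETD5 cells and 160.3, 169, 273.2 and 331.3 in Empty cells at 36, 48, 96 and 192 h. Over both lines Ephx1 fell by 1.83 ± 0.12 at 12 h (adjusted p = 5.67e-06), the hour at which Gsta4 and Gstm1 had fallen too. Among the transferases, Mgst3, a membrane-bound enzyme, had 1176.7, 1208.5, 1221.7 and 845.1 in SETD5 cells and 1644, 2525.4, 1993.2 and 1965.9 in Empty cells at those hours, lower at all 4 (-0.86 ± 0.13, adjusted p = 0.00759). Gstt1, a theta class enzyme, averaged 45.6 in SETD5 cells and 24.8 in Empty cells (0.60 ± 0.08, adjusted p = 0.00514), under the filter of 50 at most hours, so its fold depends on the offset (0.28 to 0.96 over the alternatives). Sesn3, a sestrin, averaged 1138 in SETD5 cells and 804 in Empty cells (0.47 ± 0.09, adjusted p = 0.0156). The late calls of Ephx1, Mgst3, Gstt1 and Sesn3 were lost only without hour as a block (adjusted p = 0.834, 0.423, 0.894 and 0.733). Gstm2 (0.48, adjusted p = 0.0442), the mitochondrial peroxiredoxin Prdx3 (-0.57, adjusted p = 0.0215) and Sesn2 (-0.57, adjusted p = 0.0316) passed in the late effect but were lost under 16, 8 and 14 alternatives. These included leaving out either array of 48 or 96 h for all 3, of 192 h for Prdx3 and Sesn2, of 12 h for Gstm2 and Sesn2, of 36 h for Sesn2 and of 0 or 24 h for Gstm2, with adjusted p up to 0.834, 0.404 and 0.755. The fat cell marker sums given above were lower in SETD5 cells at the same 4 hours, and their part was not tested.

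For 4 of these genes the lines also differed in the same direction at the early hours, but no early effect of theirs passed. Besides Ephx1, Sesn2, Sesn3 and Gstt1 were called over all 7 hours, where 3.62% of all genes tested passed. A call over all hours takes in the late hours too. By limma the early effect was 0.44 for Ephx1 (adjusted p = 0.291), 0.25 for Sesn3 (adjusted p = 0.776) and 0.26 for Gstt1 (adjusted p = 0.617). Sesn2, a stress-induced sestrin, was lower in SETD5 cells at all 7 hours, by -0.79 ± 0.13 over all hours (adjusted p = 0.0176). Its early effect was -1.09 (adjusted p = 0.149), a larger value than its late effect, and at 0 h it was at 114.6 in SETD5 cells and 186.7 in Empty cells. The gaps of Sesn2 at 0, 12 and 24 h were -0.63, -1.03 and -1.62. At 24 h it was at 12.4 in SETD5 cells, at the floor of the array, and 71.3 in Empty cells. The early value therefore depends on the offset. Sesn3 was higher in SETD5 cells at all 7 hours (0.38 ± 0.08, adjusted p = 0.0308). The Gstt1 value was 0.46 ± 0.08 (adjusted p = 0.0198). At 12, 24, 36 and 48 h Gstt1 lay at 7.7, 9.4, 20.9 and 15.1 in SETD5 cells. Empty cells gave 4.8, 3.1, 8.7 and 2.6. These intensities are at the floor of the array, so no virus difference of Gstt1 could be read at those hours. Without hour as a block all 4 calls over all hours were lost (adjusted p = 0.9997). The Sesn2 call was also lost without either 48 h array (adjusted p up to 0.0538), that of Gstt1 without any array of 24, 36, 48 or 96 h and with an offset of 64 (adjusted p up to 0.0737), and that of Sesn3 with no filter and without any array but those of 192 h (adjusted p up to 0.0931).

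**Figure D4:**
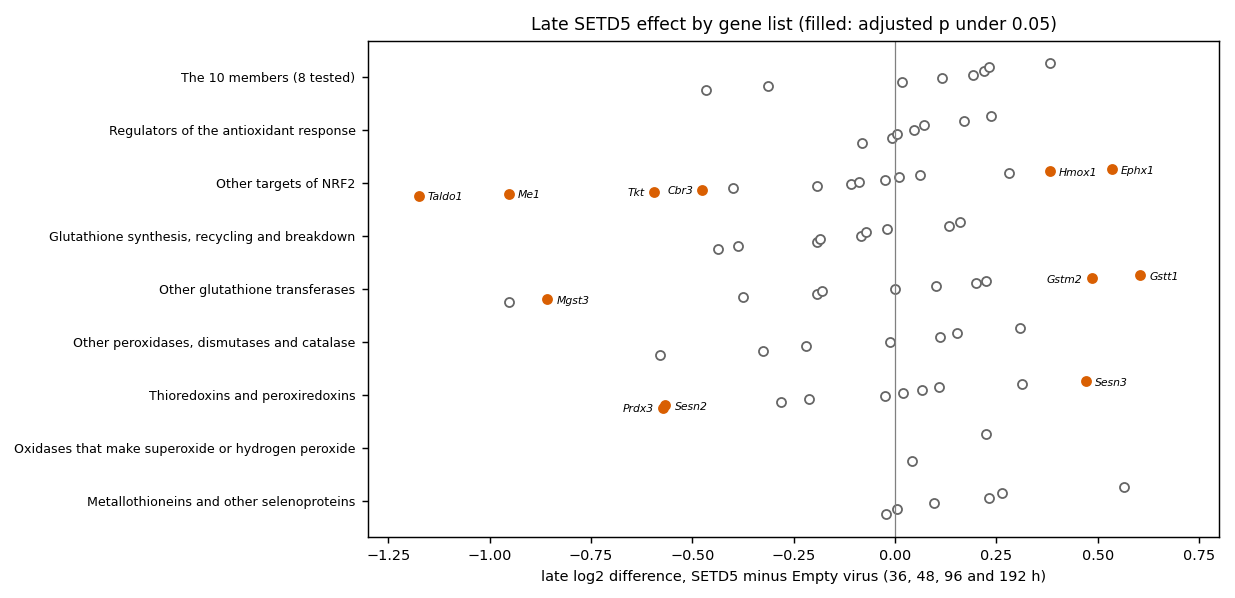
Late SETD5 effect, the log2 difference of SETD5 minus Empty virus over 36, 48, 96 and 192 h (x axis), for each tested gene (circle) of the 10 genes and of the 8 pathway lists (rows), filled and named where the adjusted p was under 0.05. All 8 circles of the top row are open, between -0.47 and 0.38, and Taldo1 lies furthest to the left at -1.18.

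Over the hours, other genes of these lists moved in both directions. Xdh, xanthine dehydrogenase, rose at all 5 hours from 12 to 96 h, by 2.76 ± 0.12 at 12 h (2106.8 against 292.9 at 0 h in SETD5 cells, and 2174.5 against 311.6 in Empty cells). Mafg, a small MAF partner of NRF2, rose by 0.90 ± 0.18 at 12 h (adjusted p = 0.00245) and also passed at 36 and 48 h, with rises of 1.07 and 0.95. Mt2, a metallothionein, rose by 1.09 ± 0.18 at 12 h and fell by 1.28 ± 0.18 at 192 h. Ggct, which breaks down gamma-glutamyl peptides, rose by 1.52 ± 0.19 at 12 h, while Gstt1 fell by 2.21 ± 0.15 and Sesn3 by 1.23 ± 0.14 at that hour. The Gstt1 fall ended at the floor of the array (7.7 in SETD5 cells and 4.8 in Empty cells), so its size depends on the offset. Of the 11 other transferases tested, 2 were called higher and 6 lower at 12 h (19.9% and 27.9% of all genes tested), with a median of -0.67 against -0.06 over all genes tested.

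For each tested gene the 3 genes with the highest Pearson correlation of log2 intensity over the 14 arrays were listed as a description. The closest to Gclc were Prg4 (0.97), Bag3 (0.97) and Top1 (0.96), and the closest to Srxn1 were Mafg (0.97), Pdxk (0.93) and Mtor (0.93). Those of Gclm were Zbtb14 (0.95), Sys1 (0.93) and Me1 (0.91). Those of Txnrd1 were Tsn (0.97), Vars (0.97) and Zmym1 (0.96), and those of Nqo1, the least close set, were Clasp2 (0.90), Ckap5 (0.89) and Zfp101 (0.89). Those of Gsta4 were Tgfbrap1 (0.97), Smim20 (0.96) and Anxa6 (0.96), those of Gstm1 were Rragc (0.97), Ccdc80 (0.97) and Glb1 (0.97), and those of Sod2 were 0610009B22Rik (0.96), Emc8 (0.96) and Pop5 (0.96). All arrays share the time course, and many genes of these cells move with it.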

How the data were processed

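Total RNA of 3T3-L1 cells was labelled as biotinylated cRNA and hybridised to Affymetrix mouse expression arrays. The authors deposited linear intensities, an average difference per probe set from the GeneChip Analysis Suite software. Each array had a mean of 100 after trimming 2% at each end, so arrays had been scaled by the authors. Genome positions of probes and detection calls were not used here. The 10 genes and all lists were chosen with earlier results of these data known.

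The offset of 16 was added before log2. Genes that reached 50 on 3 or more of the 14 arrays entered moderated two-sided tests (lmFit, eBayes) in limma 3.58.1 under R 4.3.3, adjusted over all 8682 genes by Benjamini-Hochberg and called under 0.05. The fits were run on simulated data with independent noise on each array and, in changed genes, the same shift at every late hour. Such data cannot show how the fits act where the virus difference changes from hour to hour. Virus effects had hour as a block (6 residual degrees of freedom over all hours, 5 for early and late), so error terms measure how the virus difference varied from hour to hour. Nothing in the sources used here says that arrays come from separate cultures.

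The 10 genes were always named, as were up to 4 tested genes per list, called genes first and then by the size of the late effect, and the 3 most correlated genes of each tested gene. Alternatives were quantile normalization, a common median, offsets of 4 and 64, no filter, a filter of 100, every probe set on its own, a trended robust prior, no block, a late window of 96 and 192 h, and leaving out each array. Promoter windows came from RefSeq, GRCm38.p6.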

Additional observations from a re-analysis of the deposited data

How the results depend on the processing

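The call counts and 58 single results were recomputed under every alternative each allowed. The late calls of Cbr3 and Hmox1 and the hour changes of the other list genes were not among these. Of 1353 alternative values of 58 single results, 1159 kept their direction and side of the threshold, and 14 of the 25 called hour changes held throughout. Calls over the members ranged from 0 to 1 over all hours on leaving out arrays, from 0 to 3 for the late effect, and from 17 to 32 for the hours against 0 h. The late window of 96 and 192 h gave 2 for the late effect and 2 for late minus early, where 27.3% and 10.6% of all genes tested passed. Without the 36 h array of SETD5 cells there were 3 for the late effect, where 21.9% passed. Without the 192 h array of SETD5 cells there was 1 over all hours, where 3.62% passed. Over all genes tested, calls over all hours were 314 (1 to 821), early 2 (0 to 31), late 1041 (1 to 2367), late minus early 2 (0 to 916), and hours 16067 in all (7530 to 23696).

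The virus lines share hours, not replicate numbers, so hour served as the pairing. With no replicate block the all-hours and late effects called 1 gene each over all genes tested, and none of the 8 members. The late effect of Gstm1 was -0.0267 under quantile normalization, -0.0172 under a common median, -0.0342 with an offset of 64 and -0.307 with the late window of 96 and 192 h, against 0.0160 as reported. That window also turned Gclc (-0.276), Srxn1 (-0.122) and Gsta4 (-0.0581). On leaving out arrays, the late effect of Gstm1 ran from -0.168 to 0.280, that of Srxn1 from -0.0125 to 0.249, and the all-hours effect of Nqo1 from -0.00690 to 0.213. The cause was not tested.

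Scaling to a common median moved the median of all genes by 0.16, 0.22, 0.12 and 0.17 log2 units at 12, 24, 36 and 48 h against 0 h. No called change of the 8 members turned its direction under it.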

Other observations

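Catalase (Cat), the peroxisomal enzyme that breaks down hydrogen peroxide, reached 2220.6 in SETD5 cells and 2398.8 in Empty cells at 96 h. At 192 h it was at 840.4 in SETD5 cells and 3014.1 in Empty cells. Over both lines it fell by 1.36 ± 0.41 at 12 h (limma, adjusted p = 0.0194) and rose by 1.89 ± 0.41 at 96 h (adjusted p = 0.0125). Its late virus difference was -0.58 ± 0.24 (adjusted p = 0.140).

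The 2 Txnrd1 probe sets that did not stand for the gene stayed under 50 on every array. They lay at 5.7 to 21.9 in SETD5 cells and 15.7 to 38.9 in Empty cells for 1424486_a_at, and at 4.5 to 12 in SETD5 cells and 10.5 to 16.6 in Empty cells for 1424487_x_at. These intensities are at the floor of the array, and no virus difference was read from them. Which transcripts of Txnrd1 each probe set reads was not analysed here.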
